A study of Homo sapiens with 6 samples.

Results

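The IFIT, MX and IFI44 antiviral effectors are 10 genes whose products act directly on viruses or on their RNA: IFIT1, IFIT2, IFIT3, IFIT5, MX1, MX2, RSAD2, IFI44, IFI44L and BST2. They were picked by name as the rows of the count table that carry these symbols, and the group was chosen by measured values of the same comparison, the counts in shUSP39 against pGIPZ-NC libraries. All 10 were among the 16571 gene symbols of the table. Their difference between the groups is therefore given as a description with its error. Counts of effectors past the limits used for all genes are printed beside the share of all genes and are no evidence of a difference.

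RNA-seq was performed on A2780, an established human ovarian cancer cell line that the labels call serous. Both groups were infected with lentivirus, and each had 3 libraries described as biological replicates of 1 line. The pGIPZ-NC cells carried a control short hairpin vector, and the shUSP39 cells carried one directed at the spliceosome protein USP39. The labels do not say which hairpin was used, and apart from the lentivirus they name no virus, interferon or other agent in either group. USP39 was not analysed here, and so no check of the labels by the targeted gene was made.

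Cells that sense foreign or misplaced RNA or DNA switch on interferon genes, and the secreted interferons act on receptors of the same and of neighbouring cells. The receptors signal through JAK kinases to a complex named ISGF3, which contains STAT2 and IRF9 and binds a repeat of TTTC units called the interferon-stimulated response element (ISRE) in promoters. Some IFIT genes and RSAD2 can also be switched on directly by the factor IRF3, without interferon. Products of the genes bind viral RNA (IFIT proteins), trap incoming nucleoprotein or capsids (MX proteins), make a chain-terminating nucleotide (RSAD2) or hold budding virions on the cell surface (BST2).

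The total count lay between 28294819 and 32939264 per library, and levels are given as CPM, counts scaled to that total, in which 1 count equals 0.0304 to 0.0353. A gene had to pass the filter on low counts to be tested, and 10695 genes did. Genes with at least 1 count numbered 12662 to 12809 in the pGIPZ-NC libraries and 12819, 15446 and 14890 in shUSP39 replicates 1, 2 and 3, so results are also given for shUSP39 replicate 1 alone. The labelled cell type was only partly borne out by 8 ovarian and epithelial markers: PAX8, EPCAM and CDH1 had at most 6 counts in any library, WT1 was not analysed here, and KRT18 had 676 to 1075 counts. The summed level of these markers was mostly KRT18. It ran from 21.9 to 25.3 CPM in control and from 32.8 to 39.7 CPM in shUSP39 libraries. KRT8 fell from 0.970 to 0.0315 CPM (log2 fold change -4.76, adjusted p = 4.13e-05 by edgeR). MUC16 had 5, 1 and 1 counts in control and 6, 150 and 71 in shUSP39 libraries. In shUSP39 replicates 2 and 3 MUC16 was at 4.96 and 2.41 CPM. The part of these markers in the results was not tested. Markers of immune cells, which can express the effectors strongly, were near 0. Of 8 listed, 6 were in the table and summed to 0.248 to 0.530 CPM in controls and to 0.252 to 0.893 CPM with shUSP39, and PTPRC, the pan-leukocyte gene, had at most 7 counts. The 5 fibroblast markers summed to 18.7 to 21.5 CPM in controls and to 16.5 to 20.03 CPM with shUSP39, but not evenly, since DCN and LUM fell (log2 fold changes -3.81 and -3.63, adjusted p = 0.000191 and 7.34e-09 by edgeR) and THY1 rose by 0.68 (adjusted p = 0.000475). Their part was likewise not tested. In bulk RNA, fewer cells with a transcript and less of it per cell cannot be told apart.

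The promoters of the effectors are shown first, since the ISRE is what these genes are known to share and the choice of the group did not use sequence. RefSeq promoters of build GRCh38.p14, 250 bases before to 50 bases after a gene's start site, were found for 8 of 10 effectors, all except IFIT2 and MX2. An ISRE-type match was defined as TTTC, any 2 bases and TTTC, on either strand, with overlapping matches counted separately. It was present in 7 of these 8 promoters (87.5%), against 996 of 27305 promoters in the table (3.65%) and 2.85% of those of tested genes. Stretches around the matches are printed along the strand of the gene, with the matches in capitals.
IFIT1 (chr10:89392497-89392539, plus strand): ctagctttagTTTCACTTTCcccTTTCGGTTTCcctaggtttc
IFIT3 (chr10:89327831-89327894, plus strand): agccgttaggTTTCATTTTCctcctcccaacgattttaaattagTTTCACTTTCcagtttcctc
IFIT5 (chr10:89414513-89414567, plus strand): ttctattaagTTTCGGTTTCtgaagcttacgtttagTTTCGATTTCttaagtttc
IFI44 (chr1:78649761-78649788, plus strand): gcacactgagTTTCAGTTTCctttctct
IFI44L (chr1:78620274-78620394, plus strand): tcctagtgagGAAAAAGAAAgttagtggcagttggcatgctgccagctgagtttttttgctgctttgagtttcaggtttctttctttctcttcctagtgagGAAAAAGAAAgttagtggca
BST2 (chr19:17405735-17405770, minus strand): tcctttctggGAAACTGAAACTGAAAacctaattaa

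IFIT1, IFIT3, IFIT5 and IFI44 carried the repeat in the TTTC orientation, while IFI44L and BST2 carried its complement. The first base of the matches lay 116 and 103 bases before the start site in IFIT1, 156 and 122 in IFIT3, 45, 19 and 4 in IFIT5, 18 in IFI44, 164 and 73 in IFI44L, and 130 and 124 in BST2. The pair in BST2 overlapped, and the pair in IFI44L had the same letters. The third match of IFIT5 crossed the start site. In MX1 the only match began 12 bases after the start site, and neither of these last is printed.

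RSAD2 was the promoter without such a match. Its letters instead held TTTC, any 1 base and TTTC, a form that was searched for only after the sequence was seen. This shorter spacing occurred 4 times in RSAD2, starting 152, 118, 84 and 60 bases before the start site, always with the letters in capitals below.
RSAD2 (chr2:6865723-6865843, plus strand): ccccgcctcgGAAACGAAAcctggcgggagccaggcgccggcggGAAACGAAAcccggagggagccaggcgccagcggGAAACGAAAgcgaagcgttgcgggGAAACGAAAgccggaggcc

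The shorter spacing was also present in MX1 and, overlapping the ISRE-type match, in IFI44, so 3 of 8 effectors held it, against 3.22% of all promoters. The gamma-activated site (GAS) type (TTC, any 3 bases and GAA) was found in BST2 alone, 136 and 58 bases before the start site, against 7.88% of all promoters. Having an ISRE-type match did not separate the effectors by their levels described next, since IFIT1 and IFI44 had it as well as IFIT5, IFI44L and BST2. A match is a run of letters and no measure of binding.

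**Figure D1:**
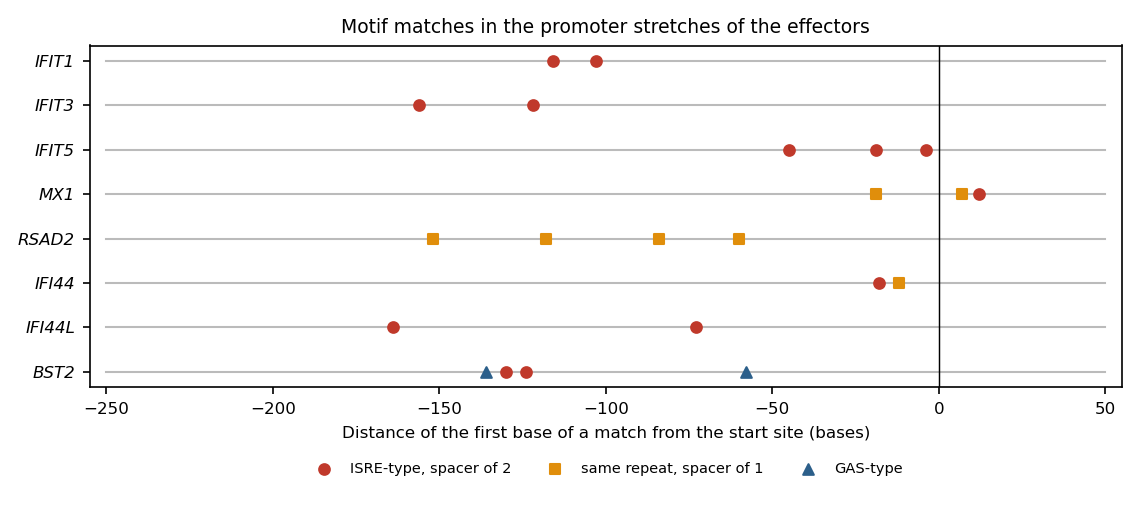
Position of motif matches in the promoter stretch of 8 effectors, as the distance of the first base of a match from the start site in bases (horizontal axis, 0 is the start site). Circles are ISRE-type repeats with a spacer of 2, squares the same repeat with a spacer of 1, and triangles the GAS-type palindrome. Circles are seen in every gene except RSAD2, which has 4 squares.

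Across the group, RSAD2, IFI44, MX2, IFIT1 and IFIT2 were higher in shUSP39 libraries, IFIT5 was slightly higher, the IFI44L groups overlapped, and BST2 was lower. IFIT3 and MX1 had too few counts to be tested. Of the 8 effectors that passed the count filter, 5 were called higher at an adjusted p under 0.05 and a fold over 2, and 0 were called lower. In the same fit 4.53% of all tested genes were called higher and 2.28% lower. At the adjusted p alone, 6 effectors were higher and 1 lower, where 16.1% and 17.5% of tested genes were. The 3 shUSP39 libraries were all above the 3 pGIPZ-NC libraries in 6 of the 8 and all below in 1, and for tested genes these shares were 24.1% and 20.3%. Nothing is read from these counts, because the group was chosen on this comparison. The median log2 fold change of the 8 was 3.29, against 0.01 over all tested genes.

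**Figure D2:**
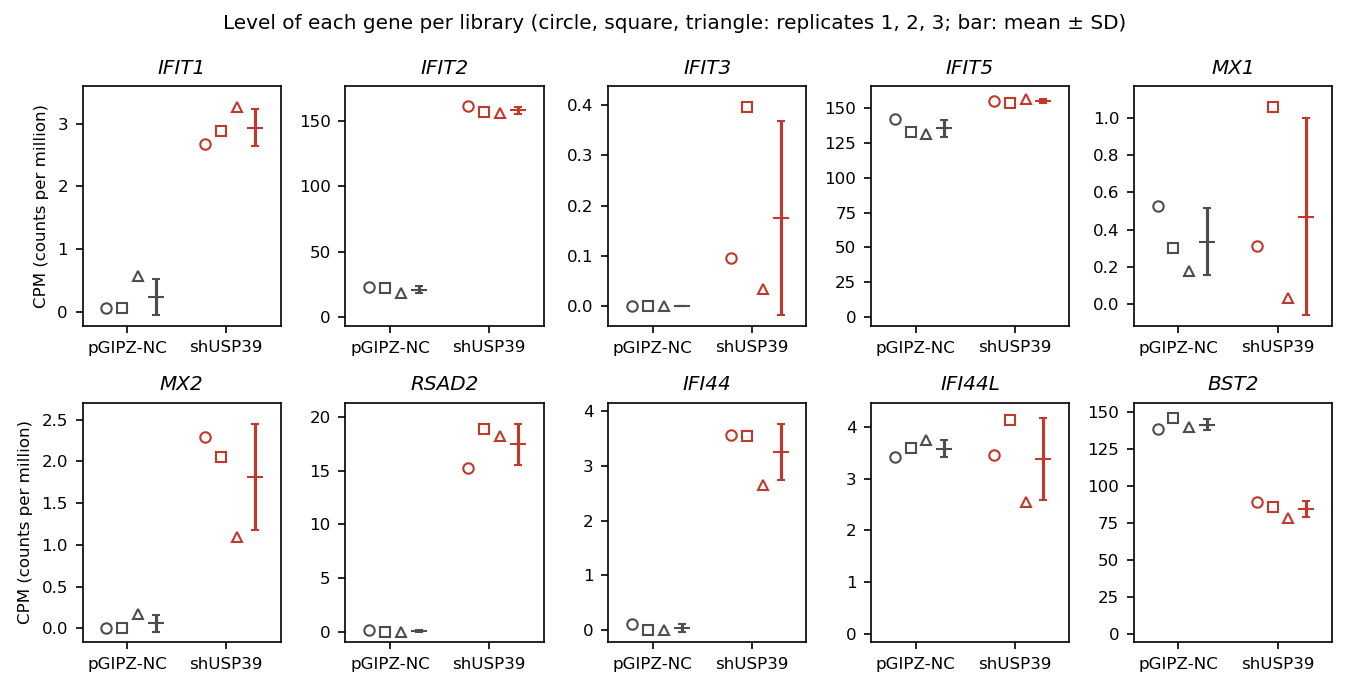
Level of each of the 10 effectors per library in CPM (vertical axes start near 0 and differ between panels), with pGIPZ-NC in grey and shUSP39 in red. Circles, squares and triangles are replicates 1, 2 and 3, and the bar is the mean ± SD (n = 3). In RSAD2, IFI44, MX2, IFIT1, IFIT2 and IFIT5 all red points lie above all grey points, in BST2 all lie below, and in MX1 and IFI44L they overlap.

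The IFIT proteins, made of tetratricopeptide repeats, recognise RNA ends that the cell does not put on its own messages. IFIT1 binds RNA that lacks the cap methylation of host messenger RNA. IFIT1 (10:91152303-91166244 on GRCh37, plus strand) had 2, 2 and 16 counts in pGIPZ-NC replicates 1, 2 and 3 and 85, 87 and 96 counts in shUSP39 replicates 1, 2 and 3. The third control library was higher than the other two, and the groups did not overlap. Levels were 0.229 ± 0.291 CPM and 2.94 ± 0.2998 CPM (SD, n = 3), and the fitted log2 fold change was 3.70 with a standard error (SE) of 0.50. As a ratio of summed counts, scaled by depth, shUSP39 was 13.7-fold higher, with an exact 95% interval of 8.69 to 22.8. Such intervals cover counting error only. The fitted value rested on that control library, since it was 5.46 without pGIPZ-NC replicate 3.

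The table held 2 IFIT1 transcripts of the 5 that RefSeq lists, and the others were not analysed here. The levels above are therefore those of a part of the gene. NM_001270928.1 had 9 counts over the pGIPZ-NC libraries and 119 over the shUSP39 libraries, and NM_001270930.1 had 11 and 149. The first therefore took 45.0% of the gene's counts in pGIPZ-NC and 44.4% in shUSP39, so both transcripts were higher in nearly the same proportion.

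IFIT2, a partner of IFIT1 and IFIT3 that also promotes apoptosis, had the highest CPM, not scaled by length, of the effectors over 2-fold higher. IFIT2 (NM_001547.4, 10:91043451-91069028, plus strand) had 732, 737 and 514 counts in pGIPZ-NC and 5122, 4747 and 4596 in shUSP39. In CPM these were 22.7, 22.4 and 18.2 against 161, 157 and 156. The groups were far apart, and the shUSP39 libraries varied little, with a coefficient of variation of 1.66% where counting alone gives 1.44%. The log2 fold change was 2.88 (SE 0.07), and the ratio of 7.46 had a counting interval of 7.11 to 7.82. Across 18 settings the log2 fold change stayed between 2.78 and 2.93. It is thus the effector whose difference was measured with the least relative error among those over 2-fold.

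IFIT3 bridges IFIT1 and IFIT2 and stabilises IFIT1. Its rows (10:91087064-91137230, plus strand) were at 0 in all 3 pGIPZ-NC libraries and had 3, 12 and 1 counts in shUSP39. These are 0.0944, 0.397 and 0.0340 CPM, so the shUSP39 libraries were above the controls but close to the limit of detection. Against a floor of 3 counts over the control group, the sum was 5.45-fold higher. That value leaves out the error of the 16 shUSP39 counts, 12 of which came from replicate 2. The table held 2 of 4 RefSeq transcripts, and 15 of the 16 counts fell on NM_001289759.1. Because other transcripts of IFIT3 were not analysed here, these are levels of a part of the gene.

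IFIT5 binds RNA with phosphates at its end, host transfer RNA included. In contrast to IFIT2, IFIT5 (NM_012420.2, 10:91174325-91181362, plus strand) was abundant in both groups, with 142, 133 and 132 CPM in pGIPZ-NC and 155, 153 and 157 CPM in shUSP39. The lowest shUSP39 library lay above the highest control, and the difference was small. The log2 fold change was 0.17 (SE 0.05), a ratio of 1.14 with a counting interval of 1.12 to 1.17, and it lay between 0.14 and 0.21 across 18 settings. All 4 IFIT genes lie next to each other on chromosome 10 in the same orientation, and the genes at the end of the cluster that differ most in fold, IFIT1 and IFIT5, are 8081 bases apart.

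The MX proteins are large GTPases of the dynamin family that assemble around viral cores. MX1, best known for blocking influenza virus, had 17, 10 and 5 counts in pGIPZ-NC and 10, 32 and 1 counts in shUSP39 (NM_001144925.2, 21:42791947-42841998, plus strand). The groups overlapped and shUSP39 replicates 2 and 3 held both the highest and the lowest value. The ratio was 1.37 with a counting interval of 0.849 to 2.24, and the spread among shUSP39 libraries (coefficient of variation 113%) was larger than counting gives (26.4%). MX1 did not pass the count filter. Only 1 of 9 RefSeq transcripts was in the table, so no statement on the whole gene can be made.

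MX2, which blocks nuclear entry of HIV, lies 10627 bases from MX1. It had 0, 0 and 5 counts in pGIPZ-NC and 73, 62 and 32 in shUSP39 (NM_002463.1, 21:42733926-42781320, plus strand). The groups did not overlap, although shUSP39 replicate 3 was the lowest of its group. Levels were 0.0589 ± 0.102 and 1.81 ± 0.639 CPM. The log2 fold change was 4.94 (SE 0.70), and 8.82 without pGIPZ-NC replicate 3, the only control library with MX2 counts. The ratio of summed counts was 34.1, with a wide counting interval of 14.3 to 107.

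RSAD2 encodes viperin, an enzyme that turns CTP into a nucleotide which stops viral polymerases. It had the largest fitted fold with all libraries, though not without pGIPZ-NC replicate 3, where it was 8.03 and MX2 8.82 on the log2 scale. RSAD2 (NM_080657.4, 2:7005688-7038370, plus strand) had 4, 0 and 0 counts in pGIPZ-NC and 486, 571 and 536 counts in shUSP39. In CPM the controls were at 0.124, 0 and 0 and the shUSP39 libraries at 15.3, 18.9 and 18.2. The transcript was hence near the floor in every control library and at moderate levels in all 3 shUSP39 libraries. The fitted log2 fold change was 8.52 (SE 0.33), 12.05 without pGIPZ-NC replicate 1 and 7.33 with a prior count of 2, so its size depends on how the few control counts are treated. The ratio of summed counts was 407, with a counting interval of 159 to 1496.

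IFI44 and IFI44L are neighbours of related sequence, 3651 bases apart on chromosome 1, and both are standard markers of an interferon response. IFI44 (NM_006417.4, 1:79115481-79129763, plus strand) had 4, 0 and 0 counts in pGIPZ-NC and 113, 107 and 78 in shUSP39. These are 0.0414 ± 0.0716 and 3.25 ± 0.517 CPM, and the groups did not overlap. The log2 fold change was 6.10 (SE 0.56), with 9.62 without pGIPZ-NC replicate 1 and 4.93 with a prior count of 2, and the ratio of 76.2 had a counting interval of 29.4 to 281.

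IFI44L (NM_006820.3, 1:79085587-79111830, plus strand) had 110, 118 and 106 counts in pGIPZ-NC and 110, 125 and 75 in shUSP39. The groups overlapped, with shUSP39 replicate 3 the lowest and replicate 2 the highest of all 6 libraries. The log2 fold change was -0.11 (SE 0.22), and it was 0.06 without shUSP39 replicate 3. The ratio of 0.949 had a counting interval of 0.810 to 1.11. Only 1 of 6 RefSeq transcripts of IFI44L was in the table.

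BST2, or tetherin, is a membrane protein that ties budding virions to the cell surface. It was the only effector below its controls in every shUSP39 library. BST2 (NM_004335.3, 19:17513748-17516439, minus strand) had 139, 146 and 140 CPM in control libraries and 89.2, 85.5 and 78.5 CPM with shUSP39. The log2 fold change was -0.77 (SE 0.05), a ratio of 0.597 with a counting interval of 0.581 to 0.614. It lay between -0.82 and -0.69 across 18 settings, so it was past a 1.5-fold limit and not past the 2-fold limit.

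Levels can be compared between genes only per length, for which CPM was divided by the length in kilobases of the main annotated transcript. This was done for the 7 effectors with 1 row in the table, other than MX1. The levels of RSAD2 and IFI44L cover 1 of 2 and 1 of 6 RefSeq transcripts, so their places in the order may be too low. In pGIPZ-NC the order was BST2 (141 CPM per kilobase), IFIT5 (33.6), IFIT2 (6.21) and IFI44L (0.614), followed by IFI44, MX2 and RSAD2, whose libraries overlapped at 0 to 0.0738. In shUSP39 BST2 stayed first at 84.3, followed by IFIT2 at 46.6 and IFIT5 at 38.5, which changed places without overlap between their libraries. RSAD2 came next at 5.13 and IFI44 at 1.93, and both were now above IFI44L (0.580) and MX2 (0.532), which overlapped each other.

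The summed level of all 10 effectors, not scaled by length, was 302 ± 7.19 CPM in control libraries and 427 ± 7.26 CPM with shUSP39 (SD, n = 3). Longer transcripts weigh more in this sum, so it describes counts and not numbers of transcripts. It also holds only part of the RefSeq transcripts of IFIT1, IFIT3, MX1, RSAD2 and IFI44L. Per kilobase, IFIT2 went from 6.21 to 46.6 CPM and BST2 from 141 to 84.3 CPM, and no sum was taken on that scale. Of the difference of 125 CPM, IFIT2 gave 137 CPM, IFIT5 19.6 CPM and RSAD2 17.4 CPM, while BST2 was lower by 57.0 CPM (a difference of -57.0). IFIT2 made up 6.97% of the sum in pGIPZ-NC and 37.02% in shUSP39, and BST2 46.8% and 19.8%. The large folds of RSAD2, IFI44 and MX2 thus came from genes that made up little of the sum, with RSAD2 at 4.09% of it in shUSP39.

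The low control levels and the spread within groups followed a pattern across the effectors. In 6 of 10, every control library held fewer than 20 counts (IFIT1, IFIT3, MX1, MX2, RSAD2 and IFI44), while in the other 4 every control library held over 100. All effectors over 2-fold higher except IFIT2 came from the first set, so that IFIT1, MX2, RSAD2 and IFI44 passed the count filter only through their shUSP39 libraries. With shUSP39 replicate 1 alone against the controls, log2 fold changes were 3.56 in IFIT1, 2.91 in IFIT2, 5.28 in MX2, 8.33 in RSAD2 and 6.23 in IFI44. Replicates 2 and 3, left out there, are the libraries with more detected genes.

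The rest of the pathway was then examined with lists that do not hold the effectors, tested with edgeR's quasi-likelihood test, an adjusted p over all 10695 genes and no limit on the fold. At that limit 16.1% of all tested genes were higher and 17.5% lower, with a median of 0.01. Of 33 upstream genes in the table (ligands, receptors and signal transducers, sensors and negative regulators), 24 were tested, 9 were higher and 3 lower, and the median log2 fold change was 0.34. Of these, 7 were higher and 0 lower by over 2-fold, where all tested genes had 4.53% and 2.28%. Of 37 other interferon-stimulated genes, 32 were tested, 16 were higher and 1 was lower, with a median of 0.57, and 12 were higher and 0 lower by over 2-fold. Those lists were written with earlier results of these data known. IFNB1, IFNL1, CXCL10, OAS2 and CCL5 had at most 5 counts in any control library and passed the count filter only through their shUSP39 libraries. IFNA1, IFNA2, IFNG, IFNK, IFNL2 and IFNL3 had too few counts to be tested. The filter can thus tilt the counts and medians of tested genes upward.

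Among the ligands, IFNB1, the type I interferon made first by most non-immune cells, rose from 0, 4 and 0 counts to 50, 79 and 104 (log2 fold change 5.76, SE 0.64, adjusted p = 5.02e-08 by edgeR). IFNL1, a type III interferon, was at 0 in all 3 control libraries and had 137, 108 and 75 counts in shUSP39. Its adjusted p was 1.01e-10 by edgeR. Against a floor of 3 counts over the control group IFNL1 was 109-fold higher, counting error in shUSP39 left out. IFNL2 and IFNL3, near-identical copies whose reads may be split uncertainly, had 0, 11 and 5 and 8, 10 and 4 counts in shUSP39 and 0 in the controls. IFNE fell by 0.77 on the log2 scale (adjusted p = 0.0158 by edgeR), and this call was lost without pGIPZ-NC replicate 1 (adjusted p = 0.0609), pGIPZ-NC replicate 2 (0.122) or shUSP39 replicate 3 (0.0755), and with shUSP39 replicate 1 alone (0.351).

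The 3 cytosolic sensors of double-stranded RNA in the list of sensors, adaptors and IRFs all rose. IFIH1 (MDA5) rose by 2.83 (SE 0.12), DHX58 (LGP2) by 1.68 (SE 0.13) and RIGI by 1.59 (SE 0.12) on the log2 scale, with adjusted p values of 1.45e-16, 8.42e-11 and 6.03e-10 by edgeR. Of the 10 tested sensors, adaptors and IRFs, these and IRF1 (0.41, adjusted p = 0.000325 by edgeR, and 0.121 with shUSP39 replicate 1 alone) passed, and 6 did not. MAVS (-0.21), TBK1 (-0.04) and IRF3 (0.20), which carry the signal from the sensors, were among those that did not pass. The endosomal sensor TLR3 did not pass either (-1.51, adjusted p = 0.0855 by edgeR), though it passed by limma-voom (0.0428). With shUSP39 replicate 1 alone, which held 1 TLR3 count, the log2 fold change of TLR3 was -4.025. IRF7, itself interferon-induced, differed by 1.11 on the log2 scale with an adjusted p of 0.0529 by edgeR, and it passed in 8 other settings.

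Of the receptor, kinase and ISGF3 genes, 1 of 6 tested rose and 1 fell, none over 2-fold. IRF9 rose by 0.44 (SE 0.10, adjusted p = 0.000754 by edgeR, and 0.0924 with shUSP39 replicate 1 alone) and the kinase gene TYK2 fell by 0.19 on the log2 scale. IFNAR1 had a log2 fold change of -0.05 (SE 0.04). STAT2, with only 31 to 47 counts per library, had one of -0.25 with an SE of 0.36, so its change was poorly measured. JAK1 summed to 1 count over all libraries. JAK1 is a kinase of most cell types with many transcripts, so this value bears on how far the table covers genes with several transcripts, as for IFIT1, IFIT3 and MX1. Among negative regulators, SOCS3 rose by 1.27 (adjusted p = 3.71e-14 by edgeR) and SOCS1 by 1.52 (adjusted p = 0.0118, and 0.144 without shUSP39 replicate 2 and 0.353 with replicate 1 alone). IRF2 fell by 0.32 (adjusted p = 0.000489 by edgeR, and 0.076 with shUSP39 replicate 1 alone), and USP18 had a log2 fold change of -0.05.

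**Figure D3:**
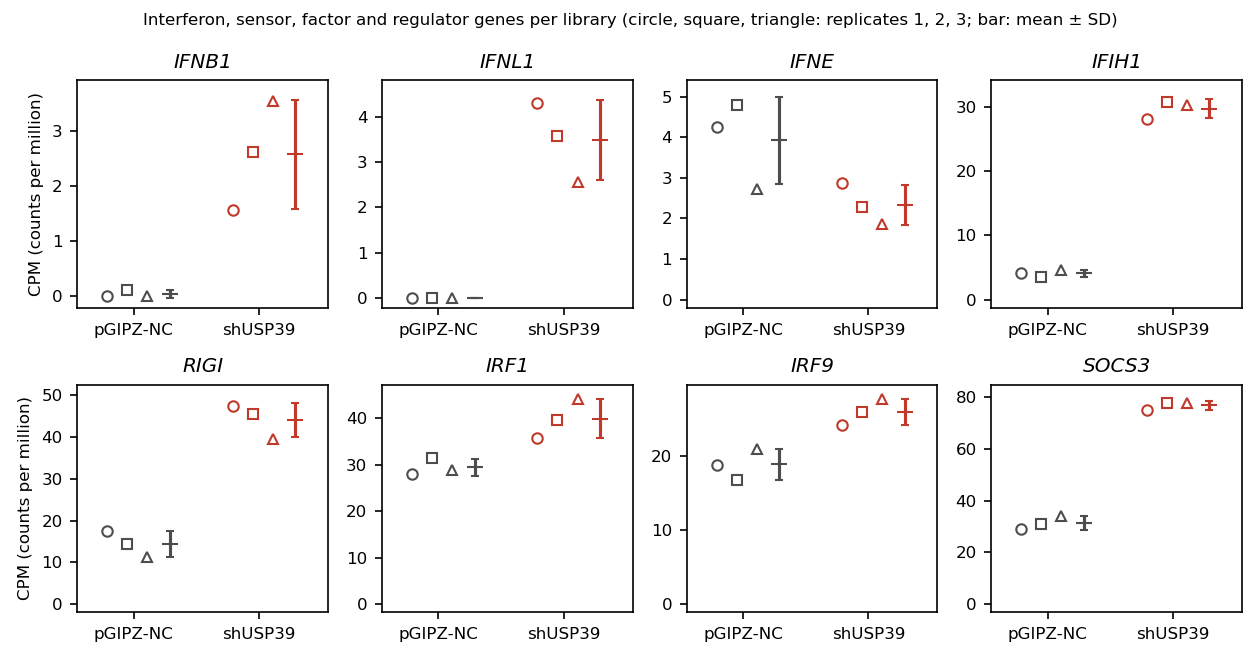
Level in CPM per library of 8 genes of the pathway other than the effectors, with pGIPZ-NC in grey, shUSP39 in red, symbols for replicates 1, 2 and 3, and bars for the mean ± SD (n = 3). IFNB1, IFNL1, IFIH1, RIGI, IRF1, IRF9 and SOCS3 are higher in every shUSP39 library, and the IFNE groups overlap.

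Other interferon-stimulated genes also ranged from large to small values. CXCL10, a chemokine for T cells, had 1 count over the control libraries and 347 over the shUSP39 libraries, a ratio of 355 with a counting interval of 63.2 to 14050. OAS2 and OASL, which belong to the family that makes an RNase L activator, rose by 6.74 and 5.94 on the log2 scale, while OAS3 rose by 0.23. ISG15, a ubiquitin-like modifier, rose by 2.97 and its ligase HERC5 by 1.68. IFITM1 rose by 3.11 and IFITM3 by 0.91, and IFITM2 had a log2 fold change of -0.01. GBP1, a GTPase better known as a target of interferon gamma, was the 1 gene of the list that fell (-0.42, adjusted p = 1.6e-07 by edgeR). IFI6 (2.05, adjusted p = 0.0115 by edgeR) and ISG20 (2.01, adjusted p = 0.0104) also passed, but IFI6 did not without pGIPZ-NC replicate 1 (0.0719), pGIPZ-NC replicate 3 (0.0754) or shUSP39 replicate 3 (0.115) and with shUSP39 replicate 1 alone (0.305), and ISG20 not without the third library of either group (0.0607 for pGIPZ-NC, 0.0526 for shUSP39) and with shUSP39 replicate 1 alone (0.333). Promoters were looked up for all 42 genes listed, whether or not they were in the table of counts, and 37 were found. An ISRE-type match was present in 25 of these 37 promoters (67.6%). It was present in 0 of the 7 promoters found for the 8 receptor, kinase and ISGF3 genes listed.

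**Figure D4:**
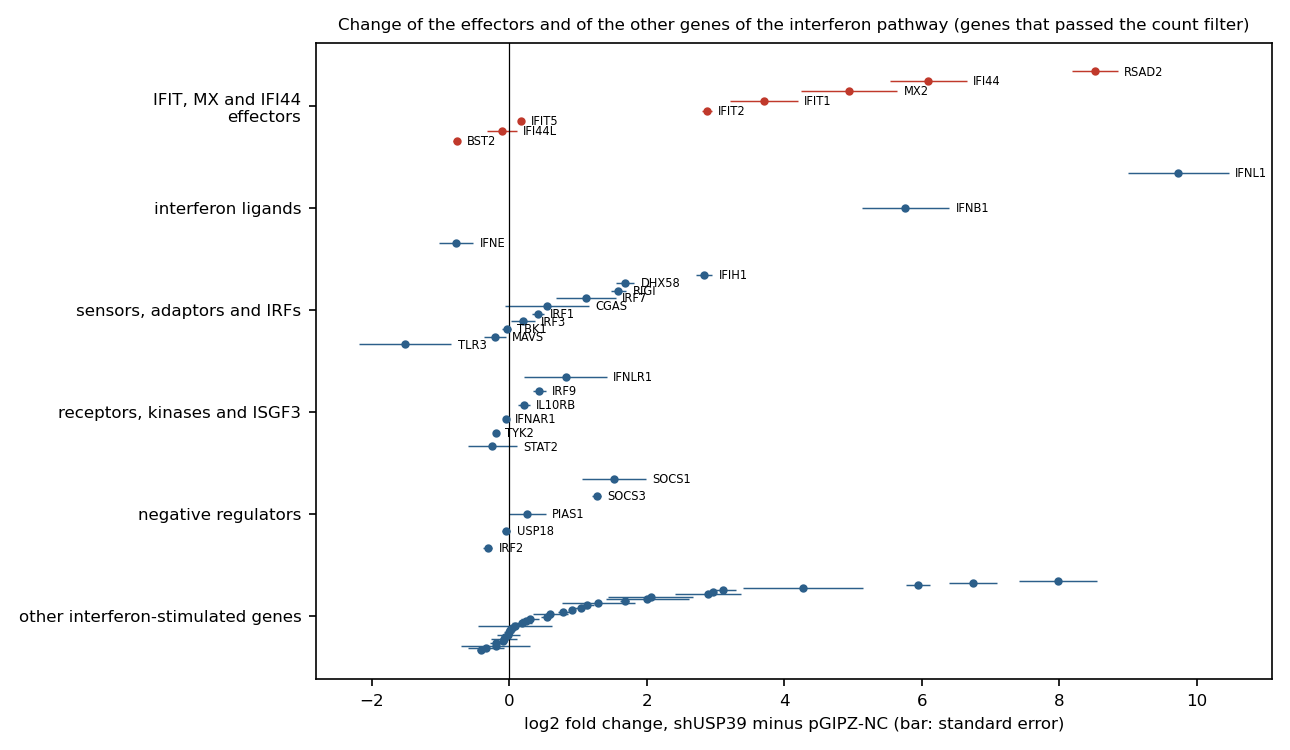
Log2 fold change of shUSP39 minus pGIPZ-NC (horizontal axis, bars are standard errors) for tested genes of each list, with the effectors in red and other lists in blue. The other interferon-stimulated genes are not labelled by name. Effectors span -0.77 to 8.52, other interferon-stimulated genes -0.42 to 7.99, and the receptor, kinase and ISGF3 genes lie between -0.25 and 0.82.

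Genes beside the effectors on the chromosome were looked at next, as the nearest tested gene on each side. Such a gene can be far off, and distances ran from 11 bases (LIPA from IFIT5) to 3377178 bases (RPS7 from RSAD2). Of 11 such neighbours that are no effectors, 2 passed the adjusted p as higher and 1 as lower, against 16.1% and 17.5% of all tested genes. RNF144A, a ubiquitin ligase gene 19173 bases from RSAD2, rose from 15.4 to 32.6 CPM (log2 fold change 1.06, SE 0.09, adjusted p = 9.14e-10 by edgeR). RIPK4, the nearest tested gene beyond MX1 at 317531 bases, had a log2 fold change of 1.62 and did not pass (adjusted p = 0.0831 by edgeR). ACTA2, a smooth muscle actin on the outer side of IFIT2 and 292355 bases from it, fell by 0.71 (adjusted p = 2.78e-10 by edgeR). MVB12A, 92 bases from BST2, had a log2 fold change of 0.02 (adjusted p = 0.905), so the lower level of BST2 was not shared by it. LIPA, annotated across IFIT1, IFIT2 and IFIT3 on the opposite strand, rose by 0.75 (adjusted p = 0.0164 by edgeR). The use of strand in the counting is not stated, and only whole gene spans were compared, not exons. Whether reads of the IFIT genes were counted for LIPA was not tested. CMPK2, the partner gene that overlaps RSAD2 on the opposite strand, had 0 counts in the controls and 4 in shUSP39. How many of the RefSeq transcripts of CMPK2 were counted was not examined, so this may be the level of a part of the gene.

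Gene structure separated part of the group. In the main annotated transcript all 4 IFIT genes have 2 exons, which 7.92% of tested genes have at most, while BST2 has 5, RSAD2 6, IFI44 and IFI44L 9 each, MX2 14 and MX1 17, against a median of 9. The IFIT genes with 2 exons held both the largest gain in CPM (IFIT2) and 1 of the smallest folds (IFIT5).

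Apart from the effectors, the genes whose pattern was closest to the median of the 8 tested effectors were TP53I11, ADAMTS15, CCDC50, ONECUT2 and CCR1. Their Euclidean distances were 0.529 to 0.699 between mean-centred log2 CPM over the 6 libraries. TP53I11 and CCR1 were near the floor in control libraries, at 0.0575 and 0.110 CPM. ADAMTS15, which encodes a secreted protease, was at 0.891 ± 0.453 CPM in control libraries and at 7.14 ± 0.455 CPM with shUSP39. None of the 5 is in a list used here, and the likeness is a description over 2 groups of libraries.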

How the data were processed

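RNA-seq libraries of A2780 cells were compared, 3 with pGIPZ-NC and 3 with shUSP39. The authors deposited 1 table of read counts per RefSeq transcript. The submitters' processing notes name HISAT2, Cufflinks and hg19 without a role, and the counter, annotation and use of strand are not given in the sources used here. Deposited fold, p-value and q-value columns were left unused.

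Counts of 21368 rows were summed to 16571 gene symbols (of symbols that had become dates, 46 were restored from transcript accessions and 1 stayed as it was). The groups were compared with edgeR 4.0.16 under R 4.3.3 (filterByExpr, TMM, robust quasi-likelihood, group as the only term, prior count 0.125), with Benjamini-Hochberg adjustment over all tested genes. A gene was called at over 2-fold in either direction with an adjusted p under 0.05. The SE is the absolute log2 fold change divided by the square root of F. Ratios of summed counts are scaled by total counts, with exact binomial 95% intervals. P-values set the difference between the groups against the spread of libraries within them. All libraries come from 1 line, so the p-values do not cover another line, infection or hairpin. No library was a copy of another: within groups the chi-square per degree of freedom over genes was at least 4.69.

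In simulated counts for 10695 genes the fit recovered 94 of 100 genes changed 2-fold and 97 of 100 changed 4-fold, with 7 false calls. Recovery was scored at the adjusted p alone, without the limit on the fold, and was not split by level. The simulation therefore does not bear on the calls of IFIT1, MX2, RSAD2 and IFI44, which had few counts in the controls. Promoters came from a RefSeq table of GRCh38.p14, and loci, exons and lengths from GENCODE release 44 mapped to GRCh37. The genes named are the 10 effectors, genes of the lists, the nearest tested neighbours and the 5 genes of closest pattern. The members and lists were chosen with earlier results of these data known, and 1 gene of the lists is not reported here. Alternatives used DESeq2 1.42.0, limma 3.58.1, other scalings and filters, a replicate block, leaving out each library, the highest transcript and a 1.5-fold limit.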

Additional observations from a re-analysis of the deposited data

How the results depend on the processing

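Genes and effectors are counted here at an adjusted p under 0.05 and over 2-fold, and upstream and other interferon-stimulated genes at the adjusted p alone. Of 5 effectors called higher, 1 (IFIT2) was called when at least 10 counts were required in every library, a filter that removes genes near 0 in the controls, and all genes called went from 728 to 471 and other interferon-stimulated genes higher from 16 to 10. A 1.5-fold limit called 1226 genes and 1 effector lower (BST2). Leaving out each library in turn called 677 to 836 genes, 5 effectors higher, 9 to 10 upstream genes higher and 2 to 3 lower, and 15 to 16 other interferon-stimulated genes higher and 1 to 2 lower, the second being LGALS3BP without pGIPZ-NC replicate 3. With the replicate number as a block, 745 genes and 5 effectors were called, with 10 upstream genes higher. Deviations of genes from their group mean had correlations of 0.0688, 0.00477 and 0.0216 between same-numbered libraries. For 2 of the 3 control libraries, the closest shUSP39 library by this measure had the same number. With the block 3981 genes passed the adjusted p, against 3598 without it. Whether same-numbered libraries shared a batch was not tested. With shUSP39 replicate 1 alone, an alternative chosen after seeing the data in which the lone library is assumed to vary like the others, 597 genes were called, 6 upstream genes were higher and 2 lower, and 14 other interferon-stimulated genes were higher. A prior count of 2, also chosen after seeing the data, gave the values for RSAD2 and IFI44 above. Scaling to the upper quartile moved the median of all genes from 0.01 to 0.05 and the share of higher genes among those past the adjusted p from 48% to 58%. No effector that passed the filter changed sign under another scaling. The pseudocount alternatives were not run, since the table holds counts. Depth limits IFIT3 and MX1, which were below the filter.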
